A study of Homo sapiens with 4 samples.

Results

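The genes described here are 37 direct transcriptional targets of the tumour suppressor p53 other than p21: genes of growth arrest, DNA repair, metabolism, death receptor signalling, apoptosis and p53 turnover. They were chosen by gene symbol from a list of known p53 targets, with earlier results of these data known. All 37 had a row among the 23228 gene symbols counted. Of these, 35 passed the filter on low counts, as did 14473 genes in all. PHLDA3, a membrane-binding repressor of Akt, and TNFRSF10A, a receptor for the death ligand TRAIL, had 0 reads in every sample, where 3 counts would correspond to 0.0859 to 0.104 CPM (read counts scaled to a common library size). Whether their transcripts were absent or were missed by the annotation used for counting was not tested.

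RNA-seq was performed on ovarian cancer stem cells (OCSCs), here cells of the ovarian cancer line labelled SKOV3 that were sorted for high aldehyde dehydrogenase activity (ALDH+) with the ALDEFLUOR reagent and grown as spheroids in serum-free medium with EGF, bFGF, hydrocortisone and insulin. Both groups shared this sort and medium. They received vehicle (2 samples) or 5 µM of LY500307 (2 samples), a synthetic agonist of estrogen receptor beta (ERβ, gene ESR2), for 24 h, and the comparison asks which transcripts the agonist changes. Gene totals were 28841701 to 34943882 reads per sample, and the 2 LY500307 samples lay further apart than the 2 vehicle samples over the tested p53 target genes (median absolute log2 difference 0.166 against 0.0722).

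p53 is a transcription factor that is kept low by the ubiquitin ligase MDM2, itself a p53 target, and that accumulates after DNA damage, nucleolar stress and other insults. It binds DNA as a tetramer at a site built of a pair of 10-base units, each with a C and a G at fixed core positions. Its targets include brakes on the cell cycle, repair enzymes, regulators of metabolism and autophagy, and death receptors and other apoptosis genes. Several of them answer to other factors too, and SESN2 and GDF15 are also known targets of the stress factor ATF4.

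The labelled identity was checked against markers before the target genes were compared. SKOV3 is known for ERBB2 amplification. In these samples ERBB2 lay at 10.6 to 12.9 RPKM (CPM divided by transcript length in kilobases), above 54.2% of tested genes, and GRB7, its neighbour in the amplified region, lay above 16.9%. Among the epithelial and ovarian markers, EPCAM had 6213 to 8327 reads and KRT18 had 668 to 1030. KRT8 had 9 to 33 reads, KRT19 had 0 to 2, CDH1 had 0 to 4, MUC16 had 1 to 6, WT1 had 0 to 2 and PAX8 had 0. ALDH1A1, the aldehyde dehydrogenase most often tied to the sorted activity, had 134 to 185 reads. KRT7, named like GRB7 after its values were seen, had 0 to 1 reads. LIN28A, an RNA-binding protein of early embryonic and germ cells, had 8197 to 9550 reads, and its relative LIN28B had 13202 to 17010, both also named after their values were seen. VIM (vimentin), also checked, had 31588 to 45140 reads. The values of ERBB2, GRB7, KRT7, KRT8, KRT19, CDH1, PAX8, LIN28A and LIN28B go against the SKOV3 label. Those of EPCAM and KRT18 do not. The cells are therefore called the labelled OCSCs below. The receptor of the agonist, ESR2, had 7 to 12 reads per sample, ESR1 had 0, and the 6 leukocyte and endothelial markers summed to 9 to 25 reads.

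The DNA around the target genes was searched for the p53 consensus, with a pair of 10-base units that adjoin without a spacer, all 4 core C and G bases present and at most 2 mismatches elsewhere. The window was 2500 bases on each side of the annotated transcript start in GRCh37, the build to which the authors aligned. Of the 35 tested target genes, 15 held such a site (42.9%), against 3.81% of the 13782 tested genes with a matched annotation. With at most 1 mismatch the shares were 17.1% and 0.537%, and a perfect site was present at PLK2 and ZMAT3, 5.71% of the target genes against 0.0653% of all. The palindromic consensus estrogen response element was in 0 of the 35 windows and in 0.421% of all windows. A match describes the sequence and is not a measured binding site. The genes were chosen as known direct p53 targets, so higher shares than over all genes can follow from that choice. They are not an independent result. Sites of 6 members are printed below as 30 bases on the gene's strand, with the 20 bases of the site in capitals, to show the perfect and near-perfect matches and that of FAS, the death receptor that rose (the 1-mismatch site of RRM2B is not printed here):

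PLK2, chr5:57758101-57758120, minus strand, from 2207 bases before the start, 0 mismatches: atgagAAACATGCCTGGACTTGCCCtgcac

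ZMAT3, chr3:178787976-178787995, minus strand, intron 1, 0 mismatches: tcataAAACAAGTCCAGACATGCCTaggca

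GADD45A, chr1:68152458-68152477, plus strand, intron 3, 1 mismatch: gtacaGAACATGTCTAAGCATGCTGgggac

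CCNG1, chr5:162864932-162864951, plus strand, intron 1, 1 mismatch: tgtgaGCACAAGCCCAGGCTAGTCCgaggc

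DDB2, chr11:47236520-47236539, plus strand, untranslated part of exon 1 and the bases just before it, 1 mismatch: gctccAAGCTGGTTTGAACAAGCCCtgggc

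FAS, chr10:90751066-90751085, plus strand, untranslated part of exon 2, 2 mismatches: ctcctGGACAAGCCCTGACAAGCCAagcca

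TP53I3 held no such site. Its p53-responsive element is known to be a 5-base repeat, and a run of 15 units of TGTCC or TGCCC lay in the untranslated part of its exon 1, at chr2:24307213-24307287 on the minus strand, 417 bases after the start. No other gene of the 13782 had a run of 10 or more units. The first 30 bases of the run, chr2:24307258-24307287, are given in capitals because all of them belong to the repeat: TGCCCTGTCCTGTCCTGCCCTGCCCTGTCC

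**Figure D1:**
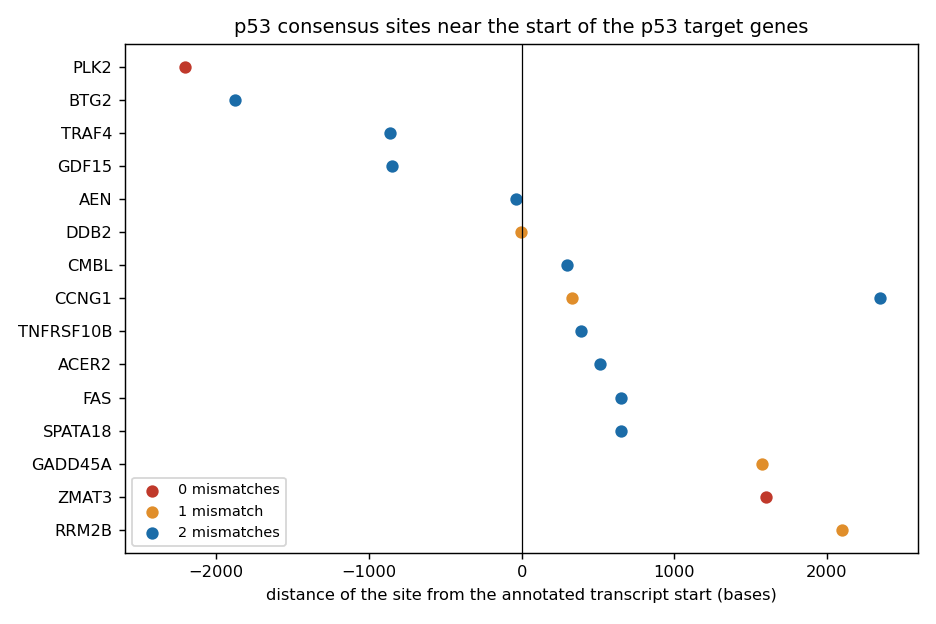
Position of each p53 consensus site (points, coloured by number of mismatches) relative to the annotated transcript start (x axis, bases, negative before the start) for the 15 target genes that hold at least 1. PLK2, with 0 mismatches, lies farthest before the start at 2207 bases, and CCNG1 holds 2 sites.

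LY500307 raised 6 of the 35 tested p53 target genes, SERTAD1, SESN2, TP53I3, FAS, TRIAP1 and RPS27L, by log2 fold changes of 0.55 to 1.02, and lowered none. A gene was called when the quasi-likelihood test of edgeR gave an unadjusted p below 0.05 with an absolute log2 fold change above 0.5, the criteria of the study. The 6 calls were 17.1% of the target genes, against 2.76% of all genes tested that were called up. Downward calls were made for 1.86% of all genes, and calls in either direction for 4.62%. After Benjamini-Hochberg adjustment over all genes the smallest edgeR adjusted p was 0.422, so 0 genes of any kind passed an adjusted 0.05, while 1678 had an unadjusted p below 0.05. An adjusted edgeR p below 0.05 was reached by 77 genes, 4 of them target genes, with a replicate block and a correction for GC content together. DESeq2 called the same 6 target genes, where it called 1.98% of all its genes up, and gave SESN2 and SERTAD1 adjusted p-values of 0.037 and 0.0388, where 0.0597% of its genes with an adjusted p passed upward.

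Smaller differences ran the same way across most of the list. The median log2 fold change was 0.25 over the 35 target genes and 0.00 over all tested genes, and 33 of 35 (94.3%) were above 0, against 50.0% of all. An unadjusted edgeR p below 0.05 in the upward direction, at any size, was reached by 18 (51.4%), against 6.09% of all genes. In the downward direction it was reached by 0, against 5.5% of all genes. Of the 18, POLH, RRM2B, ZMAT3 and EI24 missed an unadjusted 0.05 with DESeq2 and also with the replicate block. Both LY500307 samples lay above both vehicle samples for 27 (77.1%), against 24.2% of all genes, and below both for 1, FBXO22, against 24.4%. The other 7 overlapped. Because the list was chosen with earlier results of these data known, the shares describe it and are not an independent comparison. Just inside the fold limit were TP53I3 and TRIAP1 at 0.55, and just outside it were GDF15 at 0.46 and CYFIP2 and CMBL at 0.45. In bulk RNA, a change in the number of cells that express a gene and a change in RNA per cell cannot be told apart.

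**Figure D2:**
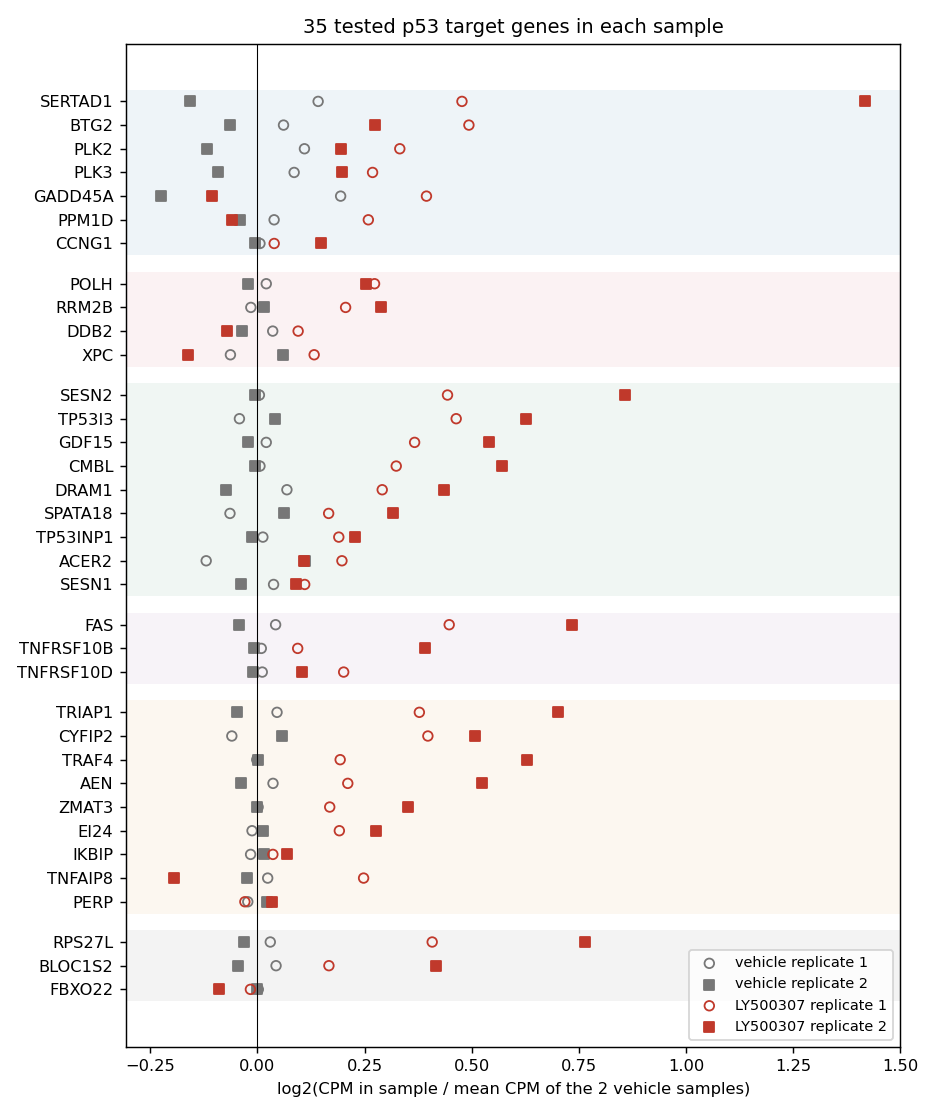
The 35 tested p53 target genes (rows, shaded by role in the order of the text) in each of the 4 samples, as log2 of the CPM in the sample over the mean CPM of the 2 vehicle samples. For 27 genes both LY500307 points (red) lie to the right of both vehicle points (grey), and SERTAD1 in LY500307 replicate 2 lies farthest out.

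The calls rested on LY500307 replicate 2. All 6 called genes were higher in it than in LY500307 replicate 1. Without it, log2 fold changes were 0.48 for SERTAD1, 0.45 for SESN2, 0.47 for TP53I3, 0.45 for FAS, 0.38 for TRIAP1 and 0.41 for RPS27L, so 0 of 35 were called, against 0.995% of all genes called up in that fit, while 33 of 35 were still above 0 with a median of 0.21. Without LY500307 replicate 1 the median was 0.28, 29 were above 0, and 11 were called: the same 6 with CMBL, GDF15, AEN, CYFIP2 and TRAF4. In that fit 7.16% of all genes were called up, against 2.76% with all samples. Over all genes replicate 2 lay above replicate 1 in 50.6%, and over the target genes in 22 of 35.

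**Figure D3:**
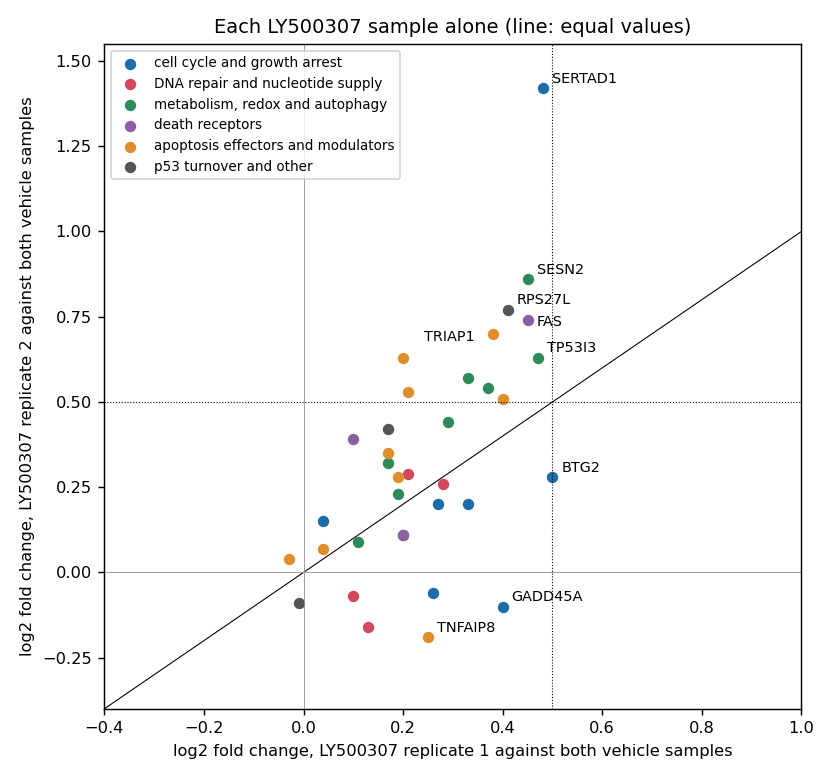
Log2 fold change of the 35 target genes with LY500307 replicate 1 alone (x axis) and replicate 2 alone (y axis), each against the same 2 vehicle samples; colours give roles, the solid line equal values and the dotted lines the fold limit of 0.5. No gene passes the limit on the x axis and 11 pass it on the y axis, and most of the 35 lie above 0 on both.

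Among the 7 tested genes of cell cycle and growth arrest, 1 rose, against 2.76% of all genes. Both LY500307 samples were above both vehicle samples for 5, against 24.2% of all genes. The median log2 fold change of the 7 was 0.23. SERTAD1 (chr19:40927496-40931899), a cofactor of cyclin-dependent kinase 4 and E2F, was at 21.1 and 17.2 CPM in the vehicle samples and at 26.7 and 51.2 CPM in the LY500307 samples. The groups did not overlap, and the second LY500307 value stood well above the first. The means were 19.1 ± 2.79 and 38.9 ± 17.3 CPM (SD, n = 2), a rise of 103% and a log2 fold change of 1.02 (SE 0.28, 95% interval 0.38 to 1.67). BTG2, an antiproliferative cofactor of mRNA deadenylation, had a log2 fold change of 0.39 (95% interval 0.13 to 0.65), and its 2 LY500307 samples lay above both vehicle samples. The polo-like kinases PLK2 and PLK3 were at 0.27 and 0.23, with intervals that include 0. CCNG1, a cyclin that acts with a phosphatase on MDM2, was abundant and nearly level, at 404 and 401 CPM with vehicle and 414 and 446 CPM with LY500307. Its log2 fold change was 0.09 (95% interval -0.14 to 0.33). GADD45A, a stress sensor of growth arrest, and PPM1D, the phosphatase that switches p53 signalling off, overlapped between groups at 0.17 and 0.11.

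None of the 4 genes of DNA repair and nucleotide supply was called. POLH, the polymerase that copies past ultraviolet lesions, was at 62.0 and 60.2 CPM with vehicle and at 73.8 and 72.8 CPM with LY500307. Its groups did not overlap, with a log2 fold change of 0.26 (SE 0.10, 95% interval 0.03 to 0.50). POLH missed an unadjusted 0.05 with DESeq2 and with a replicate block. RRM2B, the p53-inducible subunit of ribonucleotide reductase, was at 0.25 (95% interval 0.02 to 0.47). It missed an unadjusted 0.05 with DESeq2 and with a replicate block, and was at 0.42 with the correction for GC content. XPC, which recognises helix-distorting damage, was at 138 and 150 CPM with vehicle and at 158 and 129 CPM with LY500307. Its groups overlapped, and the log2 fold change was -0.01 (95% interval -0.29 to 0.28). DDB2, its partner in damage recognition, also overlapped at 0.01 (95% interval -0.23 to 0.26).

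The 9 genes of metabolism, redox balance and autophagy had the highest median of the 6 role groups, 0.36, with 2 called and 8 higher in both LY500307 samples. Over all genes 2.76% were called up and 24.2% were higher in both. SESN2 (chr1:28586029-28609002), a sestrin that senses leucine and restrains the growth kinase complex mTORC1, was at 70.5 and 70.1 CPM with vehicle and at 95.6 and 127 CPM with LY500307. The vehicle samples were nearly equal and both LY500307 samples were higher. The means were 70.3 ± 0.316 and 111 ± 22.4 CPM (SD, n = 2), a rise of 58.6% and a log2 fold change of 0.66 (SE 0.14, 95% interval 0.34 to 0.99). Its relative SESN1, the sestrin named first as a p53 target, was at 68.3 and 64.8 CPM with vehicle and 71.9 and 70.8 CPM with LY500307. The groups did not overlap but lay close, at a log2 fold change of 0.10 (95% interval -0.13 to 0.33), and the difference between the sestrins was not tested.

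TP53I3 (chr2:24300303-24308731), a quinone oxidoreductase that generates reactive oxygen species, was at 62.0 and 65.7 CPM with vehicle and at 88.0 and 98.5 CPM with LY500307. Both LY500307 samples stood above both vehicle samples by more than either pair's gap. The rise was 46.1%, at a log2 fold change of 0.55 (SE 0.11, 95% interval 0.30 to 0.80), and with a correction for GC content it was 0.47, under the fold limit, leaving 5 called target genes where 2.04% of all genes were called up. GDF15, a secreted stress cytokine of the TGF-beta family, was the most abundant of the target genes per length, at mean RPKM of 583 with vehicle and 799.7 with LY500307. Its CPM were 709.6 and 689 with vehicle and 902 and 1017 with LY500307, without overlap, and its log2 fold change was 0.46 (SE 0.11). CMBL, a cytosolic hydrolase, was at 0.45 and DRAM1, a lysosomal protein of autophagy, at 0.36, both with unadjusted edgeR p below 0.05 and under the fold limit. TP53INP1, an autophagy and stress cofactor of p53, and SPATA18, which acts in mitochondrial quality control, were at 0.21 and 0.24 with intervals that include 0. ACER2, a ceramidase of the Golgi, overlapped between groups at 0.15.

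All 3 tested death receptors were higher in both LY500307 samples, and FAS was the 1 that was called. Over all genes 24.2% were higher in both and 2.76% were called up. FAS (chr10:90750414-90775542), the receptor of FAS ligand that recruits caspase 8, was at 17.5 and 16.5 CPM with vehicle and at 23.2 and 28.3 CPM with LY500307. The lowest LY500307 value exceeded the highest vehicle value. The means were 17.0 ± 0.718 and 25.7 ± 3.59 CPM (SD, n = 2), a rise of 51.3% and a log2 fold change of 0.60 (SE 0.15, 95% interval 0.25 to 0.94). Exons of genes on the opposite strand, ACTA2 among them, cover 25.7% of the exonic bases of FAS, the strand setting of the counting is not given in the sources used here, and the part of such reads in its count was not tested. ACTA2, the smooth muscle actin, was itself at 0.22 (SE 0.11).

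Neither of the 2 TRAIL receptors with reads was called, and the difference between receptors was not tested. TNFRSF10B (DR5), the receptor that signals death, was at 344 and 339.5 CPM with vehicle and at 365 and 448 CPM with LY500307. Most of its difference came from LY500307 replicate 2, and the log2 fold change was 0.25 (95% interval -0.04 to 0.54). TNFRSF10D, a decoy receptor with a truncated death domain, was at 126 and 124 CPM with vehicle and 144 and 134 CPM with LY500307, a log2 fold change of 0.15 (95% interval -0.07 to 0.38). TNFRSF10A was the receptor with 0 reads.

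Of the 9 effectors and modulators of apoptosis, 1 rose, 6 had an unadjusted edgeR p below 0.05 upward and 7 were higher in both LY500307 samples, with a median of 0.26. Over all genes these shares were 2.76%, 6.09% and 24.2%. TRIAP1 (chr12:120881767-120884187), a small mitochondrial protein known to restrain the apoptosome, was at 49.3 and 46.3 CPM with vehicle and at 62.1 and 77.7 CPM with LY500307. The groups were apart, with the LY500307 pair spread more widely. The rise was 46.3%, at a log2 fold change of 0.55 (SE 0.13, 95% interval 0.24 to 0.86). CYFIP2, a member of the complex that regulates actin branching, was at 0.45, TRAF4, an adaptor of receptor signalling, at 0.43, and AEN, an apoptosis-enhancing nuclease, at 0.38. ZMAT3, an RNA-binding regulator of splicing, and EI24, an endoplasmic reticulum protein of autophagy, were at 0.26 and 0.23. These 5 genes passed the unadjusted edgeR p and missed the fold limit, and ZMAT3 and EI24 missed an unadjusted 0.05 with DESeq2. IKBIP was at 0.05, and TNFAIP8, a regulator of apoptosis with the lowest vehicle level of the list (6.33 CPM), overlapped at 0.04. PERP, a membrane protein of desmosomes and p53-dependent apoptosis, was near level: its CPM were 70.2 and 72.4 with vehicle and 69.9 and 73.0 with LY500307, for a log2 fold change of 0.00 (95% interval -0.23 to 0.24).

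The last 3 genes act on p53 turnover or elsewhere. RPS27L (chr15:63418071-63450220), a ribosomal protein paralogue that binds MDM2, was at 97.1 and 93.1 CPM with vehicle and at 126 and 161 CPM with LY500307. The groups did not overlap. The means were 95.1 ± 2.83 and 144 ± 25.0 CPM (SD, n = 2), a rise of 51.3% and a log2 fold change of 0.60 (SE 0.13, 95% interval 0.29 to 0.90). Its near-identical relative RPS27 had 11 to 27 reads. Reads with more than 1 place in the genome were tallied apart from the gene counts, and their part in these values was not tested. BLOC1S2, a subunit of a complex that positions lysosomes, was at 0.30 (95% interval 0.02 to 0.57). FBXO22, the substrate receptor of a ubiquitin ligase that acts on methylated p53, was at 244 and 243 CPM with vehicle and at 240.5 and 229 CPM with LY500307. It was the only target gene below both vehicle samples in both LY500307 samples, by a log2 fold change of -0.05 (95% interval -0.28 to 0.17), and with the correction for GC content it was at 0.08. That correction also moved other uncalled genes by over 1.5 times. CCNG1 was then at 0.23, SESN1 at 0.19, IKBIP at 0.17, TNFAIP8 at 0.14, PERP at 0.09, PLK3 at 0.14, DDB2 at -0.06 and XPC at -0.07.

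**Figure D4:**
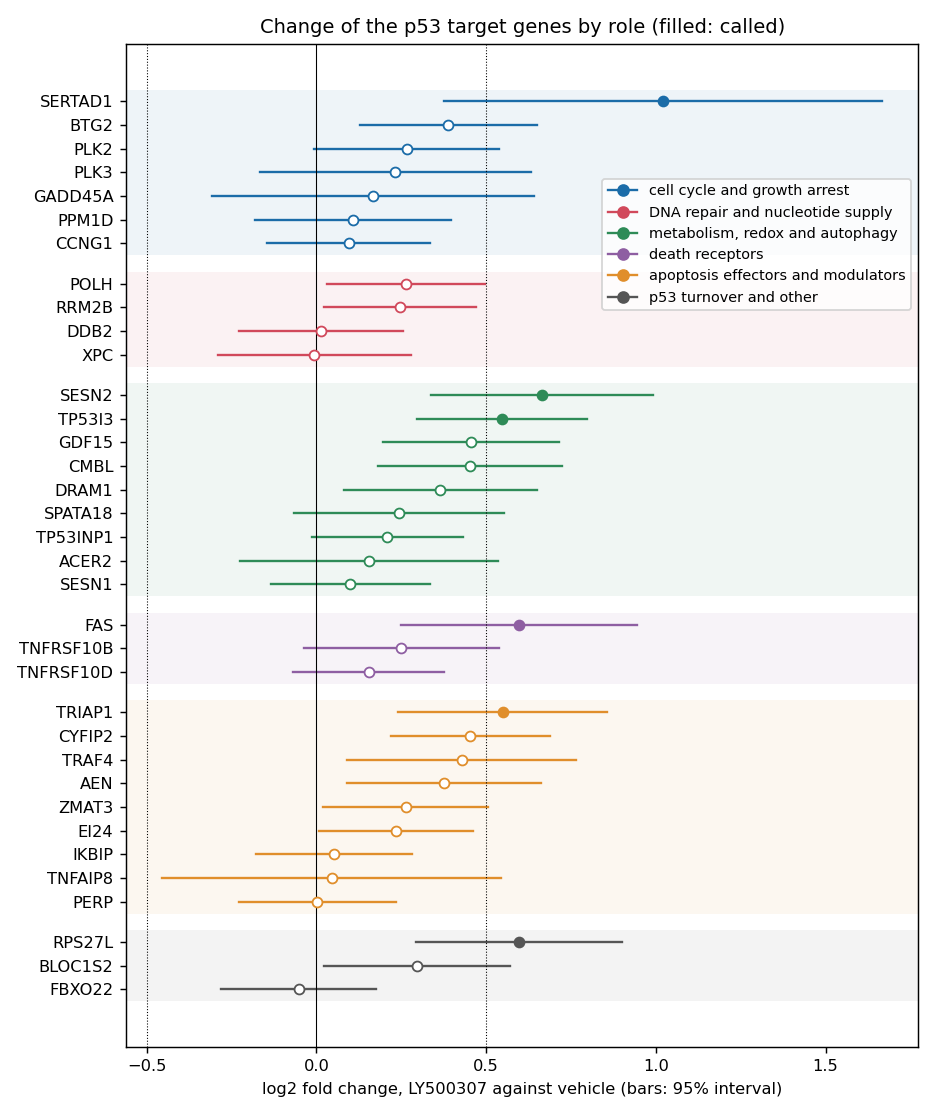
Log2 fold change of LY500307 against vehicle for the 35 tested target genes, grouped and coloured by role, with 95% intervals from the edgeR fit; filled points are the 6 called genes and the dotted lines mark the fold limit of 0.5. SERTAD1 is highest at 1.02 with the widest interval of the called genes, and FBXO22 is lowest at -0.05 (0.08 with the correction for GC content).

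The genes with the closest consensus matches were set beside those that were called. The 6 target genes with a site of at most 1 mismatch, PLK2, GADD45A, CCNG1, DDB2, RRM2B and ZMAT3, had log2 fold changes of 0.01 to 0.27 with a median of 0.21, and the other 29 had a median of 0.26. None of the 6 called genes was among the former. Both sets are small, and a link between site and change was not tested. FAS had a site with 2 mismatches, TP53I3 the repeat, and SERTAD1, SESN2, TRIAP1 and RPS27L no match in the window, which says only that these letters are not there.

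Genes that act upstream of the targets were set beside them. None of 20 tested members of the p53 family and its regulators was called by edgeR or DESeq2. Over all genes edgeR called 4.62% in either direction, a share at which few of 20 genes would be called. An unadjusted edgeR p below 0.05 at any size was reached by 0 of the 20. Over all genes it was reached by 6.09% upward and 5.5% downward, shares at which few of 20 would reach it. The median of the 20 was -0.09, and 14 were below 0. MDM2, both the inhibitor and a classical target of p53, was at 332 and 328 CPM with vehicle and at 370.1 and 341 CPM with LY500307. Its log2 fold change was 0.11 (95% interval -0.13 to 0.35), and 0.20 with the correction for GC content. Its partner MDM4 was at -0.07 (95% interval -0.30 to 0.15).

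Direct p53 targets outside the list were also chosen with earlier results of these data known. Of the 18 tested, 5 rose (27.8%) and 1 fell, against 2.76% and 1.86% of all genes. Their median was 0.28, beside 0.25 for the 35. Those that rose were CDKN1A, the p21 gene, at 0.72 (SE 0.11), FDXR, the ferredoxin reductase, at 0.62 (SE 0.14), NINJ1, a mediator of membrane rupture, at 0.58 (SE 0.12), BBC3, the BH3-only protein PUMA, at 0.55 (SE 0.12), and PVRL4, an adhesion molecule, at 1.51 (SE 0.52) on 9 to 39 reads. TGFA, a ligand of the EGF receptor, fell by 1.19 on the log2 scale, on 17 to 50 reads. Both LY500307 samples lay above both vehicle samples for 11 of the 18, against 24.2% of all genes. They lay below both for 3, TGFA, PMAIP1 (NOXA) and APAF1, against 24.4% of all genes. PMAIP1 was at -0.43 (SE 0.18), with an unadjusted edgeR p of 0.0452, and missed the fold limit. It was at -0.28 with the correction for GC content. APAF1 was at -0.20 (SE 0.11) and was not called. With the correction for GC content FDXR, NINJ1 and BBC3 were at 0.49, 0.46 and 0.32, and 3 of the 6 calls were left. With DESeq2, PVRL4 and TGFA were not called, leaving 4 up and 0 down. Without Vehicle replicate 2, FDXR, NINJ1 and PVRL4 lost their calls, PVRL4 also did without LY500307 replicate 1 and BBC3 without LY500307 replicate 2 (0.42), and TGFA was called in 1 of the 4 fits that left out a sample. The 16 genes of ATF4 and the integrated stress response had a median of 0.10. ATF4 shares SESN2 and GDF15 as targets with p53. Of the 16, 0 rose and 1, the secreted glycoprotein STC2, fell by 0.66 on the log2 scale, against 2.76% and 1.86% of all genes. At those shares few of 16 genes would be called. With LY500307 replicate 2 as the only treated sample, 5 of the 16 were called, 3 up and 2 down, against 7.16% of all genes called up and 6.17% called down in that fit.

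**Figure D5:**
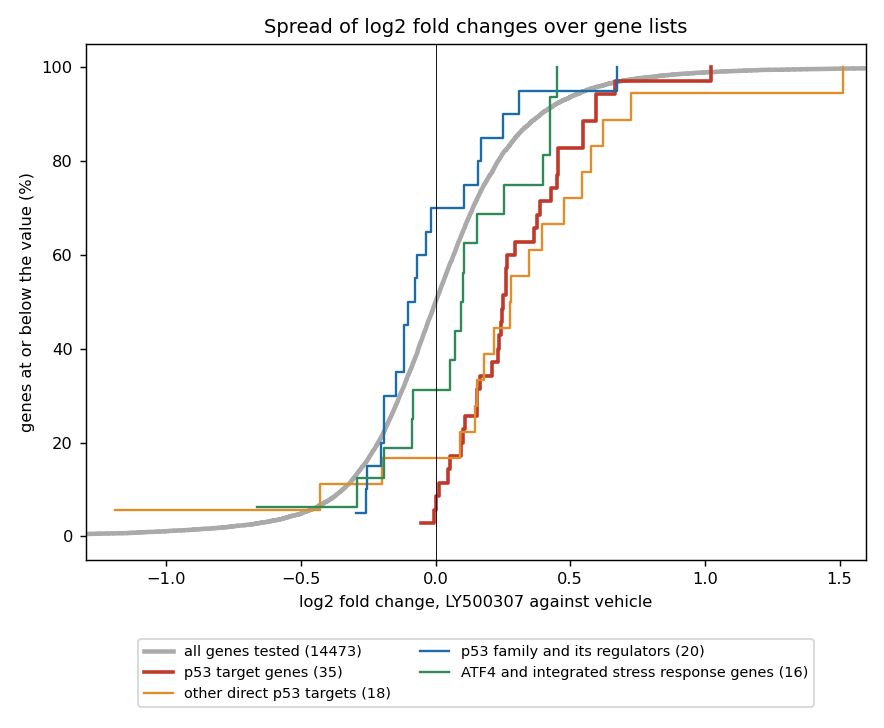
Cumulative share of genes (y axis, %) at or below each log2 fold change of LY500307 against vehicle (x axis) for the p53 target genes, the other lists and all genes tested. The curves of the 35 target genes and of the 18 other direct targets lie to the right of the grey curve of all genes over most of their length, with medians of 0.25 and 0.28, and that of the p53 regulators lies mostly to its left.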

How the data were processed

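The authors made 50-base single-end libraries of stranded mRNA from total RNA with an Illumina TruSeq kit. They deposited raw counts per gene symbol for each sample. The submitters' processing notes name bcl2fastq, TopHat2 2.0.8b, HTSeq and hg19. Tally lines for reads without a unique gene held 50.0 to 54.4% of tallied reads and were left out. The sources used here do not say whether replicates were separate cultures, so p-values measure only the spread between these samples. With 2 against 2, an exact permutation test cannot go below p = 0.333.

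Counts were tested with edgeR 4.0.16 in R 4.3.3 (TMM, filterByExpr, quasi-likelihood test, Benjamini-Hochberg adjustment over all genes), with DESeq2 1.42.0, the study's tool, as an alternative. The SE is the log2 fold change divided by the square root of F. CPM use TMM-scaled library sizes, and RPKM divide them by the exonic length of the canonical GENCODE transcript in GRCh37, to which 91.8% of symbols were matched. Length-scaled levels of RPS27L are not given, since its canonical model is unusually long. The procedure was tested on simulated counts. Sites were searched with Python 3.11.15 and pysam 0.24.0. For the GC correction, the trend of log2 CPM with exonic GC, smoothed by loess (span 0.3, prior count 2), was removed from each sample.

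Members and gene lists were chosen with earlier results of these data known. Values in every sample are given for called genes, for the highest and lowest log2 fold change of each role group, for sestrins and TRAIL receptors, and for MDM2. Of the other genes to be named, 1 is not reported here. GDF15 was added after its values were seen. Alternatives were other scalings and filters, a replicate block, the GC correction, DESeq2 and leaving out each sample.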

Additional observations from a re-analysis of the deposited data

How the results depend on the processing

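The 6 calls among the p53 target genes were the same 6 genes with DESeq2, its size factors, library totals, no filter on low counts and a minimum group mean of 10 counts, and 5 of them were left with the GC correction, where TP53I3 was lost and 2.04% of all genes were called up. The median log2 fold change over the 35 target genes stayed between 0.21 and 0.30 over every alternative run for it, leaving out each sample included. Leaving out each sample gave 0 calls (without LY500307 replicate 2) to 11 (without LY500307 replicate 1) among the target genes, and 352 to 1987 calls over all genes, against 669. It gave 3 (without Vehicle replicate 2) to 6 among the other direct p53 targets, 0 to 1 among the p53 regulators and 1 to 5 among the ATF4 genes, where leaving out Vehicle replicate 1 gave 2. The GC correction left 3 of the 6 calls among the other direct p53 targets. In these fits the lone sample of a group is assumed to vary like the other group.

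Deviations of same-numbered samples had a correlation of -0.0701 over all tested genes and -0.176 over genes above 10 CPM. With 2 samples per group, these values cannot show whether same-numbered samples shared a culture or batch. With the replicate block, 6 target genes and 717 genes in all were called, and with the block and GC correction together 5 and 602. An adjusted p below 0.05 was reached by 1 gene and 0 target genes with the block, and by 77 and 4 with the block and GC correction. With the crossed pairing as block, chosen after the data were seen, 6 target genes and 781 genes in all were called, and 8 and 381 reached an adjusted p below 0.05.

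The 2 samples of a group limit the precision of the fold changes, and at these depths levels under 3 counts per library could not be measured.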

Other observations

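In RefSeq promoters (GRCh38.p14, 250 bases before to 50 after the start), 28 of the 37 p53 target genes were matched. For the target genes 1 promoter per gene was used. The 35116 promoters set beside them were not limited to 1 per gene or to tested genes. GGGCGG, read on both strands, was in 25 of the 28 (89.3%), against 45.0% of 35116 promoters, and among the called genes it was in SERTAD1, SESN2, FAS, TRIAP1 and RPS27L. A single p53 10-base unit was in 4 (PLK2, EI24, RPS27L and AEN; 14.3% against 6.63%). AGGTCA was in 7.14% against 13.8%, TATAAA in 3.57% (GDF15) against 11.5%, CCAAT in 32.1% against 34.6%, TGACGTCA in 3.57% (PPM1D) against 1.85%, and TGATGNAAT in 0% against 0.991%. These are descriptions of letters in the window, and the parts of base composition and promoter class in them were not tested.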
